A study of Mus musculus with 7 samples.

Results

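The Toll-like receptors Tlr1 to Tlr9 and the co-receptor Cd14 were followed on 7 arrays of CD11c-positive spleen cells. The 10 genes were chosen by name, with earlier results of these data known. All 10 were measured, by 14 probe sets that each name 1 of these genes alone, out of 22625 probe sets and 12393 named genes in all. Genes with several probe sets were Tlr7 with 3, and Tlr3 and Tlr4 with 2 each, and for them the probe set of highest mean stands for the gene in counts over genes. The arrays were hybridised with RNA of 3 samples labelled Atg16l1 hypomorph and 4 labelled wild type, all on the C57BL/6J background and all collected on day 7 after an allogeneic hematopoietic stem cell transplant, in which the graft comes from a genetically different donor. Atg16l1 encodes a protein of the complex that lipidates LC3 in autophagy, and a hypomorphic allele retains some of the gene's activity. The labels do not say whether donor, recipient or both carried the genotype, which allele was used, or whether an array holds 1 animal or several, so p-values describe the spread between these 7 samples. Mice were 9 weeks old at collection per the sample protocol and 8 weeks per the series description, and cells were enriched on CD11c by magnetic sorting.

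Toll-like receptors are membrane proteins of innate immune cells that bind conserved microbial molecules, and in dendritic cells and macrophages their engagement switches on cytokine and costimulatory genes. Tlr1, Tlr2, Tlr4, Tlr5 and Tlr6 act at the cell surface on lipoproteins, lipopolysaccharide or flagellin, and Cd14 is a lipid-anchored protein that hands lipopolysaccharide to Tlr4. Tlr3, Tlr7, Tlr8 and Tlr9 act in endosomes on nucleic acids, where Unc93b1 delivers them and lysosomal proteases cleave them. In the gene order of the RefSeq table of GRCm38.p6, Tlr7 and Tlr8 are adjacent on chromosome X, and Tlr1 and Tlr6 are adjacent on chromosome 5. No gene coordinates are given, because the array files name no genome build.

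Values are the authors' log2 values, with array medians from 5.46 to 5.53 and lower quartiles from 3.31 to 3.39. Atg16l1 read 6.76 to 6.94 on the hypomorph arrays and 7.20 to 7.42 on the wild-type arrays, with no overlap (limma adjusted p = 0.462). Itgax, which encodes CD11c, read 7.98 to 8.48 in the hypomorph and 7.98 to 8.33 in wild type. Genes of other spleen cells were bright as well, such as the neutrophil gene S100a8 at 13.40 to 13.86 in the hypomorph and 13.77 to 13.88 in wild type, and the red pulp macrophage gene Vcam1 at 12.99 to 13.16 and 12.61 to 13.03. Each value therefore belongs to a mixture of cells, in which fewer cells of a type and less RNA per cell cannot be told apart. The level of a probe set depends on its sequence, so levels are compared between arrays and never between genes.

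None of the 14 probe sets passed an adjusted p of 0.05 in limma, and of all 22625 probe sets 0 (0%) passed. Of the 14, 10 had a positive log2 change (hypomorph minus wild type) and 4 a negative one, where 50.7% of all probe sets were positive. Unadjusted p-values were under 0.05 for 1 of 14, Tlr8, against 7.69% of all probe sets (4.35% higher in the hypomorph, 3.34% lower). The groups did not overlap for the same 1 of 14, against 5.57% of all probe sets (3.07% higher in the hypomorph, 2.5% lower). Both counts were close to what these shares would give for 14 probe sets. The adjusted p of the members ran from 0.644 to 0.978. For the other 13 probe sets the 95% confidence interval of the change included 0. Its margin to each side of the change ran from 0.21 for Tlr5, a probe set near the lower quartile of the arrays, to 0.82 for Cd14. Smaller changes than these could not be told from 0 on 7 arrays.

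**Figure D1:**
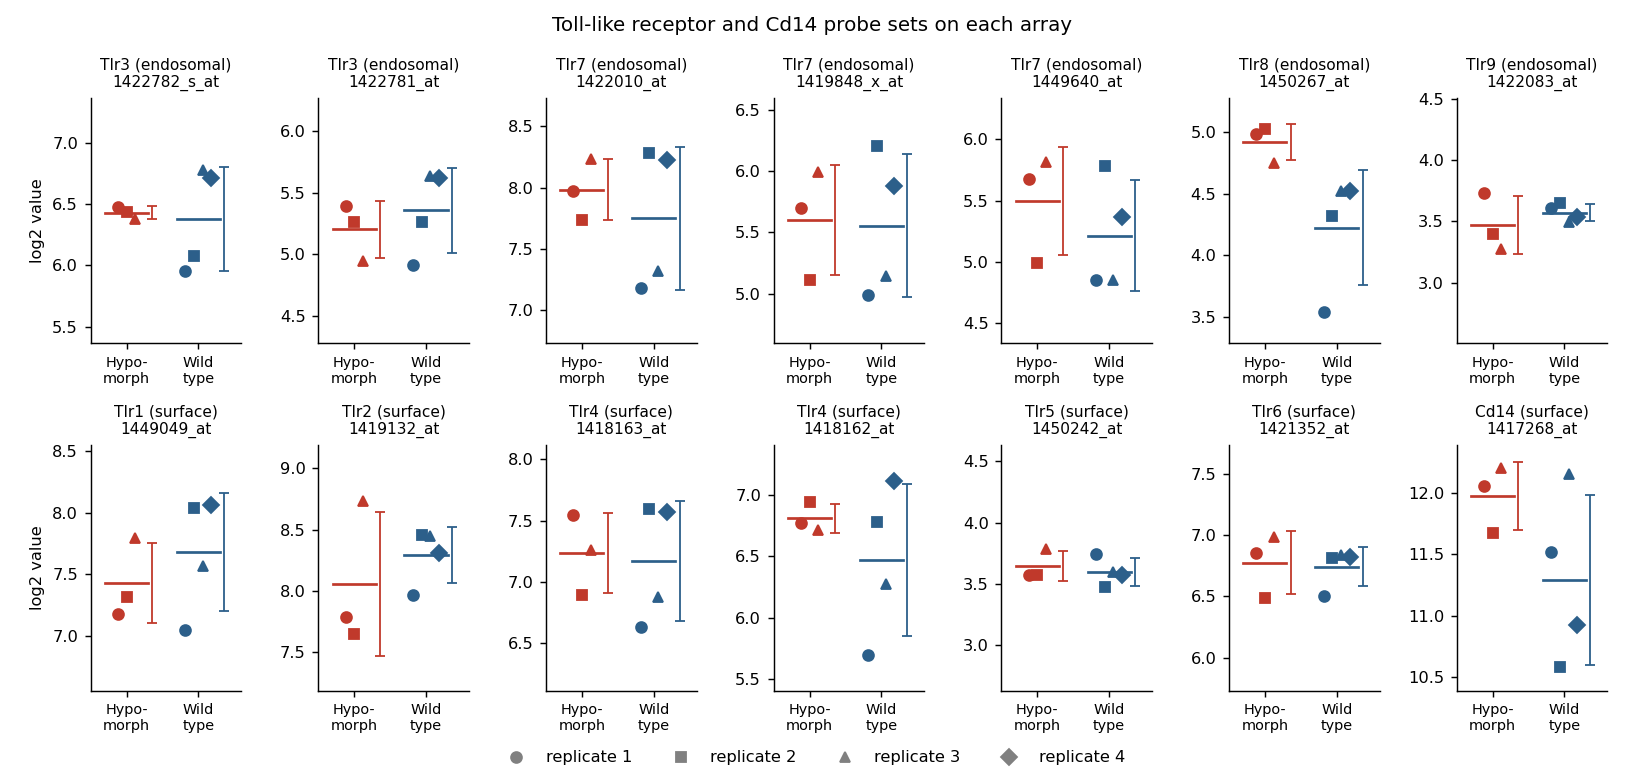
Log2 value (vertical axis) of each of the 14 probe sets on every array, hypomorph (red, 3 arrays) left and wild type (blue, 4 arrays) right. Symbols mark replicate numbers, lines the group means and bars 1 SD to each side. Every panel spans the same log2 distance. Only for Tlr8 do all hypomorph arrays lie above all wild-type arrays.

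For Tlr8, the endosomal receptor adjacent to Tlr7, the groups did not overlap. A count of 1 among the 14 probe sets was near the share of all probe sets (5.57%). In humans TLR8 binds single-stranded RNA, and the role of the mouse receptor is less well defined. Tlr8 read 4.99, 5.03 and 4.75 in the hypomorph, against 3.53, 4.32, 4.52 and 4.52 in wild type. All 3 hypomorph arrays were above all 4 wild-type arrays, and wild-type replicate 1 was the lowest. The mean was 4.92 ± 0.150 in the hypomorph and 4.22 ± 0.469 in wild type (SD over 3 and 4 arrays). The change amounted to 0.70 on the log2 scale (95% confidence interval 0.14 to 1.25), or 1.62-fold (1.10 to 2.38), and 1.26% of all probe sets had a change of at least that size. The limma p was 0.0204 unadjusted and 0.644 adjusted over all probe sets, so the gene did not pass. Over the 35 splits of the arrays the exact permutation test (two-sided) gave 0.0286, which is its lowest possible value.

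The separation of Tlr8 rested on a dim probe set, which was below the array median on all 7 arrays and above the lower quartile on all 7. In wild-type replicate 1, at 3.53, it was near the lower quartile (3.31 to 3.39 over the arrays). Adding 32 to the linear value before taking log2, which shrinks differences of dim probe sets, brought the change to 0.29 (limma adjusted p = 0.666). The change ran from 0.47 without wild-type replicate 1 to 0.80 without wild-type replicate 3 or 4. Leaving out hypomorph replicate 1 gave an unadjusted limma p of 0.0607, leaving out replicate 2 one of 0.0627, and the lowest adjusted p under any alternative was 0.412. Wild-type replicate 1, lowest for Tlr8, was also the lowest of the 7 arrays in the red pulp macrophage marker list. The same held for the pan, CD8 lineage and CD11b lineage dendritic cell lists, while this array was the highest in the T cell and NK cell lists. The part of any cell type in the Tlr8 values was not tested.

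Tlr3, an endosomal receptor for double-stranded RNA that signals through Ticam1 rather than Myd88, showed overlapping groups with both probe sets. The brighter one, whose suffix marks probes shared by several transcripts, read 6.48, 6.44 and 6.37 in the hypomorph, against 5.95, 6.08, 6.77 and 6.71 in wild type. The hypomorph arrays were close together and lay inside the wild-type range, with wild-type replicates 1 and 2 below them and 3 and 4 above. The change was 0.05 (95% confidence interval -0.44 to 0.54). The other probe set read 5.39, 5.27 and 4.95 in the hypomorph and 4.91, 5.27, 5.64 and 5.62 in wild type, a change of -0.16 (-0.61 to 0.30). The probe sets thus differed in sign, although their profiles over the arrays were alike, with a root mean square difference of 0.17 between them after centring.

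The bases upstream of Tlr8 and Tlr3 are shown because these receptors share the endosome and the arrays, while only Tlr8 separated the groups. They are the 250 bases before the gene start in RefSeq (GRCm38.p6), for Tlr8 chrX:167264330-167264579 and for Tlr3 chr8:45410381-45410630, both on the minus strand and printed 5′ to 3′ on the gene's strand. Capitals mark matches to any of 4 motifs searched on both strands: GAGGAAGT (the ETS element bound by PU.1), TGANTCA (the AP-1 element), and the consensus of the kappa B element and of the interferon-stimulated response element, which hold ambiguity letters.
Tlr8: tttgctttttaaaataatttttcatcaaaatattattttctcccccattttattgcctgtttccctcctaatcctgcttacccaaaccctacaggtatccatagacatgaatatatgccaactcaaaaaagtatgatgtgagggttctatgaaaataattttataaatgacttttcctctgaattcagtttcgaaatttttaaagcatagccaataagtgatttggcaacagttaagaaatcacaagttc
Tlr3: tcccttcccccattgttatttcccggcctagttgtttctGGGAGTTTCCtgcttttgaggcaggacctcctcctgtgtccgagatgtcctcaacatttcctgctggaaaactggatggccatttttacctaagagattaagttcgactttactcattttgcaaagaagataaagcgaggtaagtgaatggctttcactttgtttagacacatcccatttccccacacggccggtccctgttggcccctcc
Tlr8 held no match to these letters in this window, and Tlr3 held the kappa B letters, 211 bases before the start, which 7.25% of 32851 promoters of the table hold in the same window. Of the 10 genes, 7 had an entry, and Tlr4, Tlr7 and Cd14 were not searched. Tlr2 held 2 kappa B matches that overlap each other. Tlr1 held the PU.1 element, as 2.44% of promoters do, and Tlr9 the AP-1 element, as 6.75% do. Tlr5 and Tlr6 held no match, and the interferon-stimulated response element, which 0.828% of promoters hold, was in none of the 7. These matches describe the letters alone, and no binding was measured.

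Tlr7, the endosomal receptor for single-stranded RNA, was measured by 3 probe sets that varied together from array to array. The brightest read 7.97, 7.74 and 8.23 in the hypomorph, against 7.18, 8.28, 7.32 and 8.22 in wild type. Wild-type replicates 2 and 4 were high and 1 and 3 low, and the hypomorph arrays lay within the wild-type range. Its change was 0.23 (95% confidence interval -0.47 to 0.93). The second, whose suffix marks probes that can match other sequences, read 5.70, 5.11 and 5.99 in the hypomorph and 4.99, 6.20, 5.15 and 5.88 in wild type, a change of 0.05 (-0.73 to 0.82). The third read 5.68, 4.99 and 5.82 in the hypomorph and 4.86, 5.79, 4.86 and 5.36 in wild type, a change of 0.28 (-0.37 to 0.94). Root mean square differences between the centred profiles of the 3 probe sets were 0.16 to 0.20. All 3 had wild-type replicates 2 and 4 above 1 and 3.

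Tlr9, the endosomal receptor for unmethylated CpG DNA, lay near the lower quartile of the arrays. It read 3.73, 3.40 and 3.28 in the hypomorph, against 3.61, 3.65, 3.50 and 3.53 in wild type, with the lowest values and the highest value all in the hypomorph. The change was -0.10 (95% confidence interval -0.36 to 0.16).

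Cd14 had the largest change among the surface genes, with overlapping groups. It read 12.06, 11.67 and 12.20 in the hypomorph, against 11.52, 10.58, 12.16 and 10.92 in wild type. The hypomorph arrays were all above wild-type replicates 1, 2 and 4, and wild-type replicate 3 lay among them. The mean was 11.98 ± 0.274 in the hypomorph and 11.29 ± 0.693 in wild type (SD over 3 and 4 arrays). The log2 change was 0.68 (95% confidence interval -0.14 to 1.51, or 0.907-fold to 2.84-fold), with a limma adjusted p = 0.658 and an exact two-sided permutation p of 0.171, and 1.33% of all probe sets had a change of at least that size. The spread of Cd14 within the groups was larger than that of 98.4% of probe sets. The change was 0.44 without wild-type replicate 2 and 0.97 without wild-type replicate 3, whose unadjusted limma p was 0.00826 and adjusted p 0.749.

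Tlr4, the receptor for lipopolysaccharide that Cd14 serves, did not follow Cd14 across the wild-type arrays. Its brighter probe set read 7.55, 6.90 and 7.26 in the hypomorph, against 6.63, 7.60, 6.88 and 7.57 in wild type. Wild-type replicates 2 and 4, the lowest arrays for Cd14, were the highest for this probe set, and the groups overlapped. The change was 0.06 (95% confidence interval -0.57 to 0.70). The other probe set read 6.77, 6.94 and 6.71 in the hypomorph and 5.70, 6.78, 6.28 and 7.12 in wild type, a change of 0.34 (-0.37 to 1.05). Between the members, the profile of Tlr4 was closest to that of Tlr7, with a root mean square difference of 0.19 after centring.

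Tlr2, which pairs with Tlr1 or Tlr6 to bind bacterial lipoproteins, read 7.79, 7.65 and 8.73 in the hypomorph, against 7.96, 8.45, 8.44 and 8.31 in wild type. Hypomorph replicates 1 and 2 were below all wild-type arrays and replicate 3 was above them all. The change was -0.24 (95% confidence interval -0.84 to 0.37), and leaving out hypomorph replicate 3 gave -0.57 (unadjusted limma p of 0.00819, adjusted p = 0.470), while leaving out replicate 2 gave -0.03. Tlr1 read 7.18, 7.31 and 7.80 in the hypomorph and 7.04, 8.04, 7.57 and 8.06 in wild type, a change of -0.25 (-0.88 to 0.38). As for Tlr7 and Tlr4, wild-type replicates 2 and 4 were above 1 and 3 for Tlr1. Tlr6 read 6.86, 6.48 and 6.98 in the hypomorph and 6.50, 6.81, 6.84 and 6.82 in wild type, a change of 0.03 (-0.29 to 0.35). For these partner receptors the hypomorph replicates differed from each other by as much as the groups did or more.

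Tlr5, the receptor for flagellin, was below the array median on all 7 arrays and spanned only 0.31 in all. Like Tlr9, it lay near the lower quartile of the arrays. It read 3.57, 3.57 and 3.79 in the hypomorph, against 3.75, 3.48, 3.60 and 3.57 in wild type, with overlapping groups. The change was 0.05 (95% confidence interval -0.16 to 0.26). Tlr5 lies on chromosome 1, as does Atg16l1, with 641 protein-coding genes between them in the RefSeq order.

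**Figure D2:**
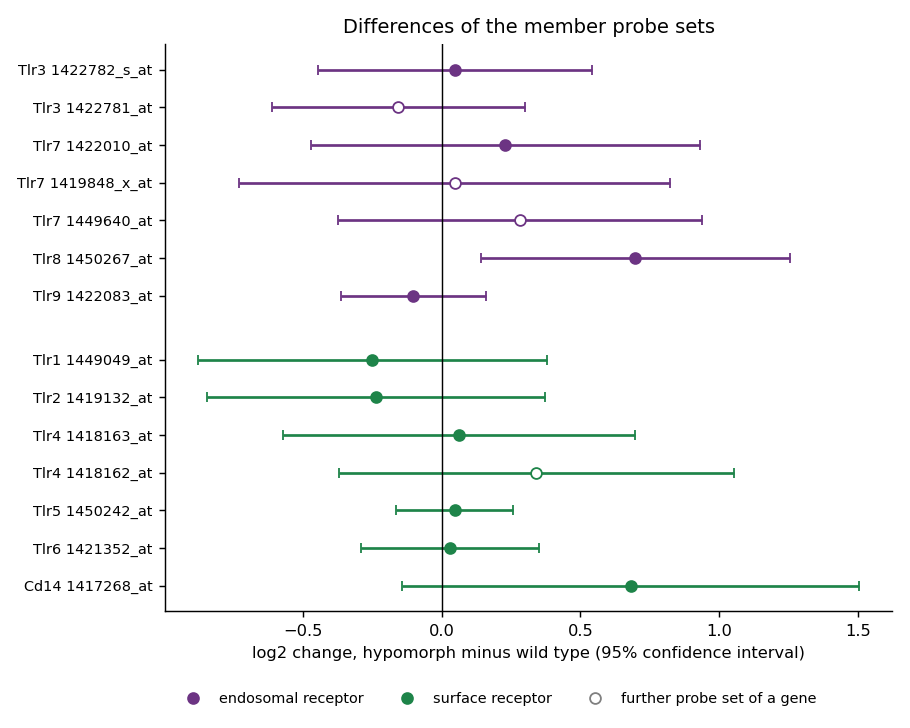
Log2 change of each probe set (points, horizontal axis, hypomorph minus wild type) with its 95% confidence interval from limma, for endosomal receptors (purple, upper block) and surface receptors (green, lower block). Open points are further probe sets of a gene. The interval of Tlr8, from 0.14 to 1.25, is the only one that does not include 0.

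Endosomal receptors were compared with surface receptors as sets of 4 and 6 genes. The median log2 change was 0.14 over the endosomal genes, with values from -0.10 for Tlr9 to 0.70 for Tlr8, and 0.04 over the surface genes, with values from -0.25 for Tlr1 to 0.68 for Cd14. The median over all 12393 genes was -0.0024. Of the endosomal genes 3 of 4 were positive, and of the surface genes 4 of 6, where 49.2% of all genes were. An unadjusted p under 0.05 was reached by 1 of 4 endosomal and 0 of 6 surface genes, against 7.17% of all genes. Without Tlr8 the endosomal median was 0.05, and without Cd14 the surface median was 0.03. The ranges of both sets overlapped, and the difference of the medians, endosomal minus surface, was 0.10.

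The sets were also followed from array to array, by the median of their centred values. For endosomal genes it was 0.16, -0.04 and 0.10 in the hypomorph and -0.56, -0.04, -0.02 and 0.16 in wild type. For surface genes it was 0.03, -0.26 and 0.22 in the hypomorph and -0.24, 0.16, 0.04 and 0.09 in wild type. Wild-type replicate 1 was the lowest array for the endosomal set and hypomorph replicate 2 for the surface set. The difference, endosomal minus surface, was 0.13, 0.23 and -0.12 in the hypomorph and -0.32, -0.20, -0.06 and 0.07 in wild type, so the groups overlapped. With single arrays left out, the difference of the median changes ran from 0.06 without wild-type replicate 1 to 0.23 without wild-type replicate 4.

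Most members varied more within the groups than most probe sets, in a comparison with probe sets of every level that was not matched for level. The within-group SD was above the median of all probe sets (0.14) for 13 of 14, all but Tlr5. It exceeded that of at least 91.0% of probe sets for 11 of 14, all but Tlr5, Tlr6 and Tlr9, and in these 11 it ran from 0.30 for the dimmer Tlr3 probe set to 0.56 for Cd14. Part of this variation had a shared form. For Tlr7 (all 3 probe sets), Tlr4 (both) and Tlr1, wild-type replicates 2 and 4 read above 1 and 3, while for Cd14 they read below. For Tlr5 they also read below, but replicates 4 and 3 were close, at 3.57 and 3.60.

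Marker lists of other spleen cells differed between the same arrays. The red pulp macrophage list, of which 12 of 12 genes were measured and had a positive change (against 49.2% of all genes) and 1 had an unadjusted p under 0.05 (against 7.17%), had a median of 0.22, 0.03 and 0.19 in the hypomorph and -0.64, 0.09, -0.30 and 0.34 in wild type. Its wild-type replicates 1 and 3 were below 2 and 4, as for Tlr7 and Tlr4. The CD11b lineage dendritic cell list (7 of 8 measured) stood between 0.00 and 0.26 in the hypomorph and between -0.21 and 0.11 in wild type. The pan dendritic cell list (9 of 9) ran from -0.09 to 0.12 in the hypomorph and from -0.14 to 0.10 in wild type. For the CD8 lineage list (7 of 9) the ranges were 0.01 to 0.10 and -0.28 to 0.31. They were -0.09 to 0.18 and -0.32 to 0.46 for T cells (7 of 8), and -0.14 to 0.15 and -0.20 to 0.31 for NK cells (7 of 8). The monocyte list (8 of 10) ran from -0.21 to 0.16 in the hypomorph and from -0.02 to 0.29 in wild type. The neutrophil list, with 11 of 13 genes measured, ran from -0.49 to 0.22 in the hypomorph and from 0.08 to 0.27 in wild type. All 11 genes had a negative change, and 2 of them an unadjusted p under 0.05 (against 3.59% of all genes in that direction). The basophil and mast cell list was the marker list whose array medians did not overlap between the groups, at -0.26, -0.29 and -0.83 in the hypomorph and 0.23, 0.46, -0.09 and 0.71 in wild type. Of its 8 genes 7 were measured, all 7 with a negative change (median -0.82), 6 with an unadjusted p under 0.05 (against 3.59% of all genes in that direction) and 4 without overlap (against 5.15% of all genes), and 0 passed the adjusted threshold in limma. In the plasmacytoid dendritic cell list (7 of 9 measured), 3 genes had a positive and 4 a negative change. In the B cell list (7 of 8), 2 were positive and 5 negative. In each list 2 genes had a negative change with an unadjusted p under 0.05 (against 3.59% of all genes). The array medians of both lists overlapped between the groups. They stood at -0.29 to 0.01 in the hypomorph and -0.23 to 0.23 in wild type for plasmacytoid dendritic cells, and at -0.44 to 0.14 in the hypomorph and 0.06 to 0.20 in wild type for B cells. The erythroid list (7 of 10) had 6 of 7 negative changes and ran from -1.66 to 0.93 in the hypomorph and from 0.02 to 0.67 in wild type. The pancreatic acinar list (8 of 10), foreign to the spleen, stood at -1.77, -1.76 and -0.00 in the hypomorph and -1.04, 0.18, 1.79 and 2.63 in wild type, so its transcripts were most abundant in wild-type replicates 3 and 4, which were also the highest arrays for Tlr3. Without these 2 arrays, a choice made after the data were seen, the change was 0.41 for the brighter Tlr3 probe set, 0.99 for Tlr8 and 0.93 for Cd14, each with a limma adjusted p = 0.808. The part of other cells in the values of the members was not tested.

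**Figure D3:**
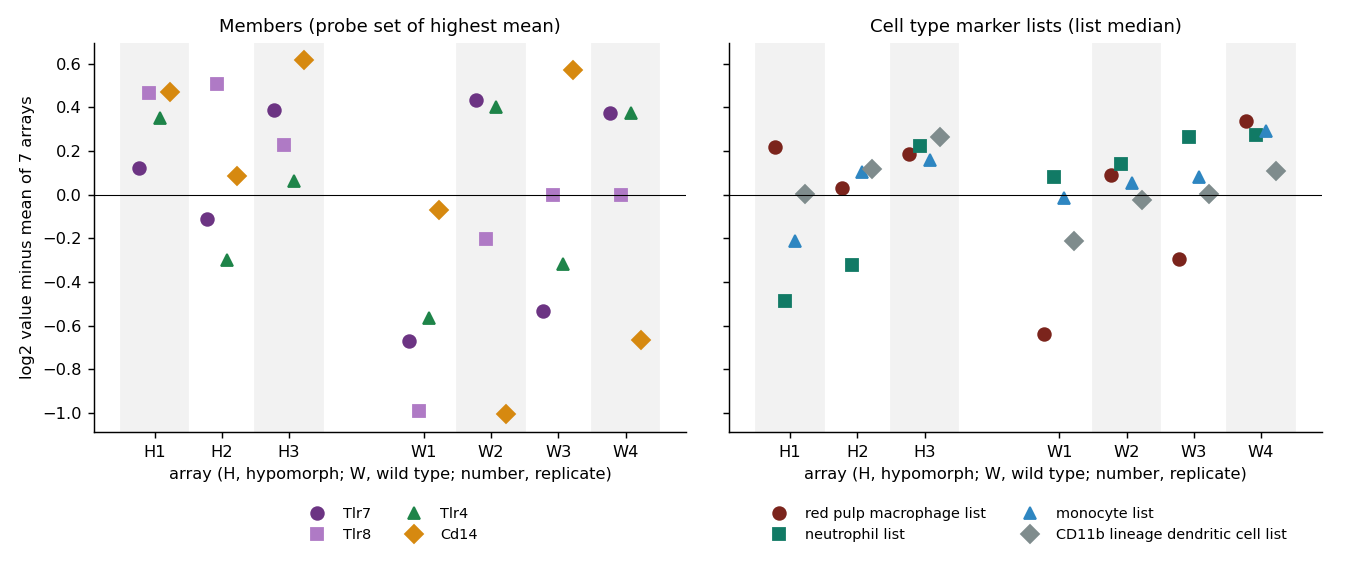
Left, log2 value minus the mean of the 7 arrays (vertical axis) for Tlr7, Tlr8, Tlr4 and Cd14, and right, the median of the same quantity over 4 cell type marker lists, for 3 hypomorph (H) and 4 wild-type (W) arrays. Tlr7, Tlr4 and the red pulp macrophage list are higher in W2 and W4 than in W1 and W3, and Cd14 is lowest in W2 and W4.

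The genes with profiles most like those of Tlr8 and Cd14, the endosomal and the surface member with the largest SD over the arrays, were taken from 12392 other genes by the root mean square difference of centred values over the 7 arrays. For Tlr8 they were Gpx3, an extracellular glutathione peroxidase (0.17), Nid1, a basement membrane protein (0.18), and Acvr1, a receptor of the BMP family (0.20). Gpx3 read 7.05, 6.88 and 6.88 in the hypomorph and 5.79, 6.74, 6.58 and 6.74 in wild type. Wild-type replicate 1 was the lowest array for Gpx3, as for Tlr8. For Cd14 they were Nfil3, a basic leucine zipper transcription factor (0.10), Pde4b, a cyclic AMP phosphodiesterase (0.18), and Pmvk, an enzyme of mevalonate metabolism (0.20). Nfil3 read 9.33, 8.71 and 9.47 in the hypomorph and 8.70, 7.74, 9.17 and 8.01 in wild type, with wild-type replicates 2 and 4 lowest, as for Cd14. These genes were ranked by likeness alone on these same arrays, so the low arrays they share with Tlr8 or Cd14 follow from the choice.

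The other genes of the pathway were described by 7 lists, chosen with earlier results of these data known. Of their 99 genes, 84 were measured. Of these 84, 55 were positive and 29 negative, with a median log2 change of 0.06, and 0 passed the adjusted threshold in limma. An unadjusted p under 0.05 was reached by 9 genes with a positive and 1 with a negative change, 11.9% together, against 7.17% of all genes (3.57% with a positive and 3.59% with a negative change). The groups did not overlap for 5 of 84, against 5.15% of all genes.

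Of the partners and chaperones of the receptors 8 of 10 measured had a positive change (median 0.08). Ly86, the partner of the receptor-like Cd180, read 11.38 to 11.76 in the hypomorph and 10.85 to 11.34 in wild type, a change of 0.35 without overlap (limma adjusted p = 0.644). Ly96, the MD-2 protein through which Tlr4 binds lipopolysaccharide, read 6.98 to 7.21 in the hypomorph and 6.33 to 7.07 in wild type, also 0.35, with overlap. The scavenger receptor Cd36 had a change of 0.37, but its other probe sets gave 0.25 and 0.04, and the lipopolysaccharide carrier Lbp had -0.36. Unc93b1, which delivers endosomal receptors, had a change of 0.03 (95% confidence interval -0.20 to 0.25). The folding chaperones of the receptors, Hsp90b1 and Cnpy3, had changes of 0.08 (-0.12 to 0.27) and 0.06 (-0.19 to 0.31), while a dimmer probe set of Hsp90b1 gave 0.49.

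Among proteases that cleave endosomal receptors 4 of 5 had a positive change (median 0.33), where 49.2% of all genes did. An unadjusted p under 0.05 with a positive change was reached by 3 of 5, against 3.57% of all genes. The list was chosen with earlier results of these data known, so these counts are a description and not a test. Cathepsin S (Ctss) read 13.32, 12.90 and 13.17 in the hypomorph, against 12.66, 12.80, 12.89 and 12.85 in wild type, a change of 0.33 (95% confidence interval 0.07 to 0.58, limma adjusted p = 0.644). All hypomorph arrays were above all wild-type arrays for Ctss and for Ctsl, by a narrow margin for Ctss. Ctsl had a change of 0.47 (0.22 to 0.72), the asparagine endopeptidase gene Lgmn 0.51 (0.06 to 0.96) and Ctsb 0.30 (-0.08 to 0.68). Ctsk, at 3.30 to 3.40 on all arrays, was near their lower quartile and had -0.01 (-0.15 to 0.12). The protease list stood lowest in wild-type replicate 1 at -0.34, as the red pulp macrophage list did at -0.64. The pan, CD8 lineage and CD11b lineage dendritic cell lists were also lowest there, at -0.14, -0.28 and -0.21. The part of any of these cells in the protease list was not tested.

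None of the measured adaptors, 3 of 6 (Ticam1, Ticam2 and Sarm1 were not measured), and none of 15 kinases, ubiquitin ligases or their partners had an unadjusted p under 0.05, by the probe set of highest mean. Myd88, the adaptor of all members but Tlr3 and Cd14, read 9.00, 8.95 and 9.25 in the hypomorph, against 9.17, 9.17, 9.21 and 9.29 in wild type. Its groups overlapped, with a change of -0.14 (95% confidence interval -0.34 to 0.06). Tirap, which bridges Tlr2 and Tlr4 to Myd88, had -0.24 (-0.58 to 0.10) and -0.04 (-0.38 to 0.30) by its other probe set, and Pik3ap1, an adaptor to phosphoinositide 3-kinase, had 0.32 (-0.11 to 0.76). Of the 15 kinases and ligases 9 had a positive change, with a median of 0.01. In this list Tab3 had -0.29, Ube2n -0.10, Map3k8 0.17 and Ikbkb 0.13. Ube2n was without overlap, and the 3 other probe sets of Ikbkb gave 0.20 to 0.36, of which 1 at 0.33 (0.08 to 0.58) had an unadjusted limma p of 0.0172.

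Of the transcription factors 7 of 11 had a positive change (median 0.07). Irf5, which transmits signals of Tlr7 and Tlr9 to cytokine genes, read 8.59, 7.72 and 8.24 in the hypomorph, against 7.66, 7.65, 7.84 and 7.66 in wild type. Hypomorph replicates 1 and 3 were above all wild-type arrays and replicate 2 was within their range. The change was 0.48 (95% confidence interval 0.05 to 0.92, limma adjusted p = 0.644), and the other probe set of Irf5 gave 0.10. Irf7 had 0.12, Rel 0.29 and Nfkb2 -0.08, or 0.02 by its other probe set.

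Among negative regulators of the pathway 9 of 10 had a positive change (median 0.09). Socs3, an inhibitor of cytokine signalling, read 10.34, 9.62 and 10.42 in the hypomorph, against 9.72, 9.47, 9.80 and 9.25 in wild type. The groups overlapped through hypomorph replicate 2, and its 3 probe sets gave changes from 0.54 to 0.59. Tnfaip3, which encodes a ubiquitin-editing enzyme, read 6.93 to 7.25 in the hypomorph and 6.23 to 6.72 in wild type, a change of 0.56 (0.23 to 0.89) without overlap. Zfp36, which destabilises cytokine mRNA, had 0.29 (-0.04 to 0.62) and the phosphatase gene Dusp1 0.20 (-0.13 to 0.53). None passed the adjusted threshold.

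Genes that Toll-like receptors are known to induce were mixed, with 17 of 30 positive and a median of 0.05. Saa3, an acute phase gene, read 9.12, 7.85 and 9.43 in the hypomorph, against 7.56, 7.82, 8.06 and 8.07 in wild type, a change of 0.92 (95% confidence interval 0.10 to 1.74). Il10, an inhibitory cytokine, read 7.27, 6.08 and 7.53 in the hypomorph and 6.00, 6.51, 6.15 and 5.68 in wild type, a change of 0.87 (0.06 to 1.68). For both genes hypomorph replicates 1 and 3 were above all wild-type arrays and replicate 2 was within their range. Acod1, the enzyme that makes itaconate, had the opposite sign, at 7.47, 7.30 and 8.19 in the hypomorph and 8.14, 7.95, 8.73 and 8.20 in wild type, a change of -0.60 (-1.19 to -0.02). Each of these 3 had a limma adjusted p = 0.644. The list median per array was 0.12, -0.31 and 0.20 in the hypomorph, so that hypomorph replicate 2 stood below the wild-type arrays at -0.03, 0.07, -0.07 and -0.02.

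**Figure D4:**
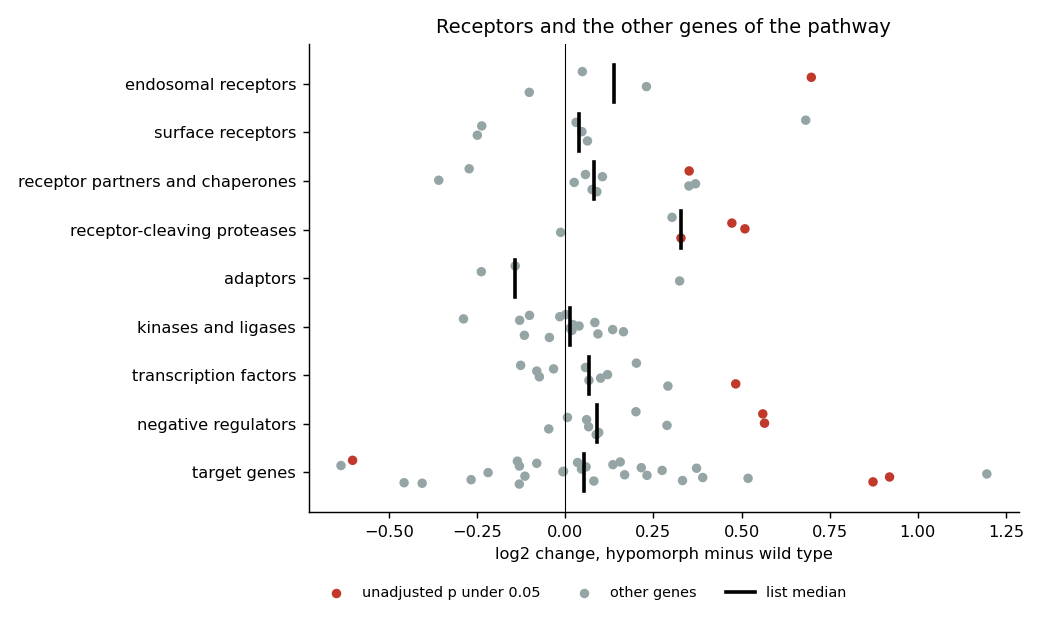
Log2 change (horizontal axis, hypomorph minus wild type) of each measured gene in 9 lists, by its probe set of highest mean. Red points have an unadjusted limma p under 0.05, grey points do not, and bars mark list medians, from -0.14 for adaptors to 0.33 for the cleaving proteases.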

How the data were processed

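Each of 7 samples (100 ng of total RNA) was hybridised to an Affymetrix Mouse430A GeneChip. The deposited table holds the authors' log2 values, 1 for each probe set on each array, and the submitters' processing notes name Affymetrix Power Tools. Its version and the methods of background correction, summary and normalization were not given in the sources used. Of 22690 probe sets, 64 controls and 1 without values were left out. Gene names came from the array annotation, updated by Entrez identifier in a RefSeq table (GRCm38.p6), where 20350 of the 20379 probe sets naming 1 gene were found. A further 691 named several genes and 1555 none.

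The comparison used limma 3.58.1 under R 4.3.3, with lmFit and eBayes, no block, and Benjamini-Hochberg adjustment over 22625 probe sets (threshold 0.05). Exact permutation tests on the size of the mean difference ran over all 35 splits (SciPy 1.17.1). Members, lists, motifs and promoters were chosen with earlier results of these data known. Named were every member probe set, Atg16l1, up to 4 genes of smallest p in each pathway list, and the 3 genes of nearest profile for 1 surface and 1 endosomal member. Unc93b1, Hsp90b1, Cnpy3, Ctsk, Itgax, S100a8 and Vcam1 were added for their roles. On simulated data (200 of 22625 probe sets changed) limma recovered 40.4% of log2 changes of 0.5, 81% of those of 1 and 97.7% of those of 2, with 5.14% of calls false. Values were drawn independently, and the changed probe sets at random from all, whose median within-group SD was 0.14. For 11 of the 14 member probe sets this SD was 0.30 to 0.56, and recovery for the members was not estimated. Alternatives were array centring, quantile normalization, trended and robust variances, array weights, the replicate block, an offset, a filter on dim probe sets, other choices of probe set, and leaving out arrays.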

Additional observations from a re-analysis of the deposited data

Results flagged for a closer look

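Tlr6 in wild-type replicate 1 was at 6.50, far from the other wild-type arrays at 6.81, 6.84 and 6.82. Of 16 sets of 4 wild-type values examined, this was the only one with such a gap, and chance gives about 1 in 20. The same array was the lowest of the 7 for Tlr1, Tlr8, and all probe sets of Tlr3, Tlr4 and Tlr7.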

How the results depend on the processing

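No member probe set passed the adjusted threshold under any of the alternatives, and the lowest adjusted p was 0.412. Of 205 member fits under alternatives, 190 kept their direction and 15 reversed it, 13 of these with 1 array left out. Without single arrays the log2 change ran from -0.093 to 0.18 for the brighter and -0.31 to -0.03 for the dimmer Tlr3 probe set, 0.04 to 0.41, -0.15 to 0.29 and 0.12 to 0.53 for Tlr7, 0.47 to 0.80 for Tlr8, -0.23 to -0.0059 for Tlr9, -0.46 to -0.12 for Tlr1, -0.57 to -0.03 for Tlr2, -0.12 to 0.23 and 0.08 to 0.56 for Tlr4, -0.024 to 0.097 for Tlr5, -0.072 to 0.18 for Tlr6 and 0.44 to 0.97 for Cd14. The brighter Tlr3 probe set also reversed with array weights (-0.027), and the dimmer one without the 2 wild-type arrays richest in pancreatic acinar transcripts (0.11), a setting chosen after the data were seen. The cause was not tested. Members with an unadjusted p under 0.05 numbered 0 to 2 without single arrays, 0 among probe sets above the median level, which leaves Tlr8 out, and 3 with the replicate block (Tlr8, Tlr4 and Cd14). No label pairs the arrays, so the numbers were not taken as pairs. Same-numbered arrays had deviations correlated at 0.10, 0.098 and 0.34. Differently numbered arrays were not compared, so these values cannot decide the matter. The block gave the same changes as leaving out wild-type replicate 4, which has no hypomorph array of its number (0.80 for Tlr8 and 0.56 for Cd14). Members with an unadjusted p under 0.05 also numbered 3 without the acinar-rich arrays (Tlr8, Tlr3 and Cd14). Probe sets past the adjusted threshold over the whole array numbered 5 with median centring, with trended and robust variances and among probe sets above the median level, 3 with array weights, and 0 to 2 without single arrays. Without single arrays the median change ran from -0.02 to 0.27 for endosomal and from -0.08 to 0.13 for surface receptors, and their difference from 0.06 to 0.23. Under the other 11 alternatives it ran from 0.05 to 0.33 for endosomal and 0.02 to 0.08 for surface receptors, and their difference from 0.0087 to 0.26. No detection calls were used here, and with 7 arrays the precision is limited.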
